A study of Mus musculus with 8 samples.

Results

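Mature plasmacytoid dendritic cells were followed across the 4 single-cell libraries of this mouse bone marrow series. They were chosen by their own transcript counts: a cell that passed the filters (at least 500 genes, at least 1000 unique molecular identifiers or UMIs, and under 10% of UMIs from mitochondrial genes) was a member if it held at least 2 UMIs of Siglech, at least 1 of Ccr9 and 0 of Cd79a. This selected 183 of 22078 cells: 155 of 7987 in the library labelled WT_JAK2WT, 17 of 3999 in GLI1KO_JAK2WT, 11 of 6490 in GLI1KO_JAK2V617F and 0 of 3602 in WT_JAK2V617F. The levels of Siglech, Ccr9 and Cd79a in the members are therefore a description of the choice and not a finding. The other markers fixed for the type, Bst2, Tcf4 and Spib, were not used by the rule, and in WT_JAK2WT at least 1 UMI of each was seen in 153, 154 and 99 of the 155 members.

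Every group came from irradiated (10.5 Gy) female B6.SJL recipients, 8 to 10 weeks old, which received marrow of 8-week-old donors and were sacrificed 112 days later. Donors were wild type (WT) or Gli1 knockout, and the marrow, taken 48 hours before transplantation, was transduced with a retrovirus carrying JAK2V617F, the activating mutant of the kinase JAK2, or with the control JAK2WT. Each donor genotype was combined with each virus, which gives the 4 groups WT_JAK2WT, WT_JAK2V617F, GLI1KO_JAK2WT and GLI1KO_JAK2V617F. The series asks what haematopoietic Gli1, an effector of hedgehog signalling, does in the myelofibrosis that JAK2V617F causes. Marrow of 3 mice per condition was tagged, depleted on magnetic beads with antibodies to CD3, B220, TER119, GR1 and CD11b, then pooled and sorted as viable lineage-negative cells with and without GFP. How GFP+ and GFP- cells were combined for loading is not given in the sources used here, and the hashtag libraries were not analysed here, so a cell cannot be traced to its mouse.

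Each group is 1 library whose cells were not assigned to mice here, so no test between groups was run. All intervals below are 95% intervals of counting error, exact Poisson for summed counts and exact Clopper-Pearson for shares of cells, and do not cover the spread between mice. Levels are UMIs summed over a set of cells, scaled to 1000000 UMIs of that set (CPM). Because the library preparation tags 3' ends, a CPM is not scaled by gene length. A ratio is log2 of the 2 CPM values after 10 CPM was added to each. A gene counted as measured where either sum reached 50 CPM, and as higher or lower where the ratio was 2-fold or more.

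Plasmacytoid dendritic cells are the professional producers of type I interferon. They sense viral nucleic acid in endosomes through TLR7 and TLR9, signal through MYD88 and IRF7, and present antigen less readily than conventional dendritic cells do. They develop in bone marrow from FLT3-dependent progenitors, TCF4 (E2-2) is the E protein that sets and holds their identity, and CCR9 marks a mature stage. In the mouse they carry B220 on their surface, which is 1 of the 5 antigens used for the depletion, so their share of a library describes what was left after that step and not their share of marrow.

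In WT_JAK2WT the members made up 1.94% of cells passing the filters (1.65 to 2.27). In GLI1KO_JAK2WT the share was 0.425% (0.248 to 0.680). In GLI1KO_JAK2V617F it was 0.169% (0.085 to 0.303). In WT_JAK2V617F it was 0 of 3602, and the exact interval reaches 0.102%. The interval of WT_JAK2WT lay above those of all the other libraries, and the intervals of the Gli1 knockout libraries overlapped each other. WT_JAK2WT, with the highest share, was the shallowest library, at a median of 4187 UMIs in cells passing the filters. The medians were 17277 in GLI1KO_JAK2WT, 13785 in GLI1KO_JAK2V617F and 13149.5 in WT_JAK2V617F, so among these libraries depth fell with the share. After every cell was thinned to 1500 UMIs and shallower cells were left out, the rule kept 69 of 6892 cells (1.00%) in WT_JAK2WT, 5 of 3466 (0.144%) in GLI1KO_JAK2WT, 3 of 6142 (0.0488%) in GLI1KO_JAK2V617F and 0 of 3459 in WT_JAK2V617F. Fewer such cells and fewer cells surviving the depletion cannot be told apart in these pools.

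**Figure D1:**
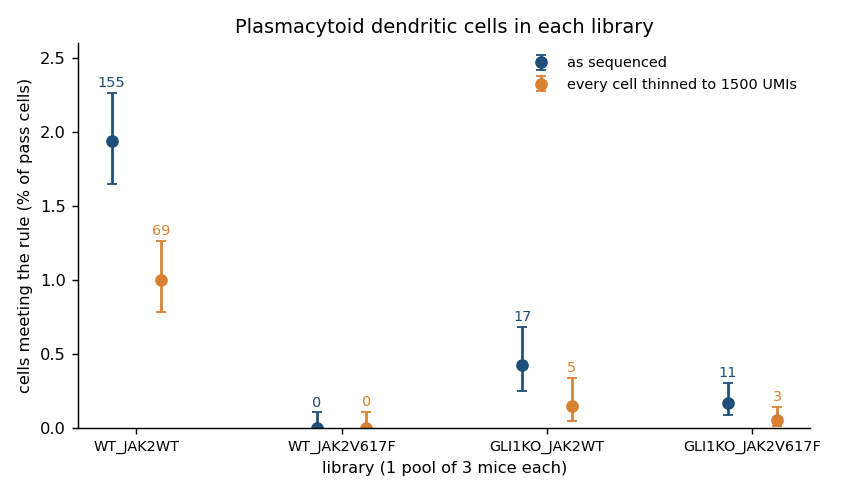
Share of cells passing the filters (vertical axis, percent) that met the rule in each library (horizontal axis), as sequenced (blue) and after thinning every cell to 1500 UMIs (orange). Points are shares, bars are exact 95% intervals of counting error, and the numbers above them count member cells: 155, 0, 17 and 11 as sequenced.

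The same order held for the wider set of cells with at least 2 Siglech UMIs and no Cd79a, whatever their Ccr9. That set numbered 389 in WT_JAK2WT (4.87%), 63 in GLI1KO_JAK2WT (1.58%), 20 in GLI1KO_JAK2V617F (0.308%) and 1 in WT_JAK2V617F (0.0278%). Among these cells Ccr9 was detected in 39.8% in WT_JAK2WT, 27.0% in GLI1KO_JAK2WT and 55% in GLI1KO_JAK2V617F, with overlapping intervals. In WT_JAK2V617F all cells passing the filters held 9 Siglech UMIs and 8 Spib UMIs in total. The related types did not all follow the same order. Cells with Dntt, Cox6a2 and Irf8, here called plasmacytoid-like progenitors, were 2.72% of WT_JAK2WT and 3.75% of GLI1KO_JAK2WT, against 0.361% of WT_JAK2V617F and 0.555% of GLI1KO_JAK2V617F. In the same sequence of libraries, conventional dendritic cells were 2.003%, 2.40%, 0.305% and 1.20%. B lineage cells did follow the order of the members, at 10.9%, 8.30%, 0.611% and 1.59%. T cells, identified by Cd3e and Cd3d, numbered 943, 52, 12 and 64. A higher share in WT_JAK2WT was therefore not particular to the members, and its cause was not tested.

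At the edges of the rule in WT_JAK2WT, 14 members held exactly 2 Siglech UMIs and 53 exactly 1 Ccr9 UMI. Just outside it lay 16 cells with 1 Siglech UMI and 12 cells that met both gene counts but held Cd79a. T cells of the same library, identified by Cd3e and Cd3d, were taken for comparison, since stray transcripts reach every droplet: Siglech was found in 16 of 943 of them (1.70%), Spib in 2.12%, Cox6a2 in 6.89%, Tcf4 in 27.5% and Bst2 in 53.2%, at a median of 4528 UMIs per cell against 5494 in the members. Ccr9 was found in 33.9% of T cells, which are known to express it, so Ccr9 alone did not set the members apart. Among 3012 cells with at least 5 Mpo UMIs, which are myeloid in transcript and deeper (median 8427 UMIs), Siglech was found in 5.35%, Spib in 5.11%, Cox6a2 in 512 cells, Tcf4 in 46.0% and Bst2 in 68.4%. Whether these cells or the T cells express Siglech, Spib, Cox6a2, Tcf4 and Bst2 or hold stray transcripts was not tested.

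In WT_JAK2WT the 155 members held 1027661 UMIs in total, 1361 to 27237 per cell, with a median of 2145 genes. The genes most enriched over the other 7832 cells were led, beyond the rule genes, by Klk1, Ctsl, Pltp, Cox6a2, Bst2, Pacsin1, Cd300c, Klra17 and Tcf4. Among 3440 measured genes 11.2% were at least 2-fold higher in members and 3.52% at least 2-fold lower. Positions below are those of GENCODE M21 on GRCm38 (mm10).

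Siglech encodes the sialic acid-binding receptor that defines mouse plasmacytoid dendritic cells (chromosome 7, 55768178 to 55778925) and summed to 1455 CPM in members and 24.7 CPM in the other cells, with 2 to 33 UMIs and a median of 9 per member. Ccr9, the gut and thymus homing receptor for CCL25 (chromosome 9, 123678439 to 123784330), summed to 511 and 25.3 CPM. Both values restate the rule. Bst2, or tetherin, the antigen of the antibody PDCA-1 (chromosome 8, 71534255 to 71537456), reached 3709 CPM (3593 to 3829) against 294 CPM in other cells, with 0 to 84 UMIs per member and a median of 25. Tcf4 reached 1773 CPM (1692 to 1856) against 162 CPM, with 0 to 36 UMIs and a median of 12. Spib, an ETS-family factor needed for normal development of the type, reached 168 CPM (144 to 195) against 17.7 CPM, with a median of 1 UMI. All 3 markers outside the rule were thus higher in members than in the other cells of the library.

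The promoters of these leading genes were searched for the E-box that E proteins such as TCF4 bind (CAGGTG, and CAGCTG) and for the core of the interferon-stimulated response element (GAAANNGAA), on both strands. The windows are RefSeq promoters of GRCm38.p6, 250 bases before to 50 after a start, and 15 of the 20 most enriched genes had an entry. Those of Siglech, Ccr9, Klk1 and Bst2 are shown because they are the rule genes and the leading genes outside it that hold a match. They are printed 5' to 3' on the gene's strand, with the matched letters in capitals. The windows are chr7:55767934-55768233 on the plus strand for Siglech, chr9:123766961-123767260 on the plus strand for Ccr9, chr7:44225110-44225409 on the plus strand for Klk1 and chr8:71537423-71537722 on the minus strand for Bst2.
Siglech: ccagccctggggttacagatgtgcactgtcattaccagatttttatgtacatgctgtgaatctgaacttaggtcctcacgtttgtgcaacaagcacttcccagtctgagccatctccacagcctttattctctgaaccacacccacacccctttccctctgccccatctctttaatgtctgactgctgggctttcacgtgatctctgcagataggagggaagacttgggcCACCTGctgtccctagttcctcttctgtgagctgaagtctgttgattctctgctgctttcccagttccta
Ccr9: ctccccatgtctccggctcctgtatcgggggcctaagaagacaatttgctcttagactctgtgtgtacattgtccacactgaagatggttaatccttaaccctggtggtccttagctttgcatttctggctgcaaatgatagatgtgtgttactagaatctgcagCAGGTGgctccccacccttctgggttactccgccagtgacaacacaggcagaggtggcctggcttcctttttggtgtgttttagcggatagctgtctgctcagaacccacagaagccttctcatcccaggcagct
Klk1: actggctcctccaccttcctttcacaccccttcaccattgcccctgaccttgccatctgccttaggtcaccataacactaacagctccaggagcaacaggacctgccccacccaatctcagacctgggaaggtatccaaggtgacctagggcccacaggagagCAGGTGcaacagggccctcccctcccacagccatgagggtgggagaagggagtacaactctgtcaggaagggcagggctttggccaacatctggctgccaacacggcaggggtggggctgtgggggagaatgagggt
Bst2: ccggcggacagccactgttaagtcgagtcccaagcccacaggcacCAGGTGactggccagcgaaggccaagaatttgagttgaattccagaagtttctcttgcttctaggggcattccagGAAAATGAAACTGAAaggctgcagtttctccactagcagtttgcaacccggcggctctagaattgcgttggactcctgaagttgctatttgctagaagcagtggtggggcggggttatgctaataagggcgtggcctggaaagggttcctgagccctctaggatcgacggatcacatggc
The E-box CAGGTG, written CACCTG on the other strand, began at base -20 from the start in Siglech, -85 in Ccr9, -87 in Klk1 and -205 in Bst2. Bst2 also held a pair of overlapping GAAANNGAA matches, at -130 and -124. Over the 20 genes, 8 of the 15 with an entry had CAGGTG in at least 1 promoter, against 22.6% of 27025 genes in the table. The 8 were Siglech, Ccr9, Klk1, Bst2, Cd300c, Mctp2, Lifr and P2ry14. Siglech and Ccr9 stand among the 8 and among the 15 through the rule that chose the members. The motif CAGCTG was found for 3 of 15 genes (18.3% of all) and GAAANNGAA for 3 of 15 (9.76% of all). Counted by promoter window, 8 of 21 windows of these genes held CAGGTG, beside 20.2% of all 32851. A match is a run of letters and not a measured binding site.

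The transcription factors of the lineage stood high as a group. Of 12 listed factors 12 were measured, 7 were at least 2-fold higher in members, none was lower, and the median ratio was 2.14 on the log2 scale beside 0.10 over all measured genes. Irf8, required for dendritic cell development, was the most abundant at 2350 CPM (2257 to 2446) against 389 CPM, with a median of 14 UMIs per member. Runx2, which supports egress of the cells from marrow, reached 807 CPM against 99.0 CPM and was seen in 145 of 155 members. Bcl11a, an upstream activator of Tcf4, reached 566 CPM against 108 CPM. Mycl, the MYC paralog used by dendritic cells, was low at 57.4 CPM against 6.94 CPM. Zeb2 at 368 and 207 CPM, Runx1 at 139 and 125 CPM and Etv6 at 42.8 and 66.1 CPM did not reach the 2-fold mark.

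The list of surface proteins also holds Pacsin1, the gene of an endocytic adaptor. In it 16 of 17 measured genes were at least 2-fold higher, at a median log2 ratio of 2.95, and Siglech and Ccr9 are 2 of the 16. Ly6d was the most abundant after Bst2, at 3506 CPM (3392 to 3622) against 446 CPM. Its level varied widely, with 0 to 146 UMIs per cell and a median of 13. Cd7 reached 538 CPM against 57.1 CPM, and Lair1, an inhibitory collagen receptor, 436 CPM against 42.0 CPM. Ly6c2 at 1062 CPM was close to the 792 CPM of the other cells, which include monocytes. Lag3 at 76.9 CPM and Cd209d at 79.8 CPM were detected in 50 and 35 members.

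Of 13 further measured genes reported for the type, 12 were at least 2-fold higher (median 3.16). Cox6a2, a muscle-type subunit of cytochrome c oxidase (chromosome 7, 128205435 to 128206387), reached 1767 CPM (1687 to 1850.3) against 96.3 CPM. Klk1, a kallikrein protease (chromosome 7, 44225360 to 44229618), reached 335 CPM (300.3 to 372) against 1.59 CPM. Klk1 transcripts were concentrated in part of the members: 79 of 155 held any, the median was 1 and the highest cell held 21. Klk1 has near-identical neighbours, 1 of which, Klk1b27, was read at 47.7 CPM against 0.21 CPM, and how reads were divided between them is uncertain. Pltp, phospholipid transfer protein and on neither list, reached 207 CPM against 1.94 CPM and was seen in 83 members. From the surface list, Pacsin1 reached 155 CPM against 3.87 CPM, and the Ly49-family receptor gene Klra17 reached 117 CPM against 1.27 CPM. Among the 13 further genes, Plac8, at 3351 CPM, was nearly as abundant in the other cells (2791 CPM). Gzmb, which plasmacytoid dendritic cells of humans express, had 0 UMIs in the 155 members, and 3 counts would be 2.92 CPM.

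**Figure D2:**
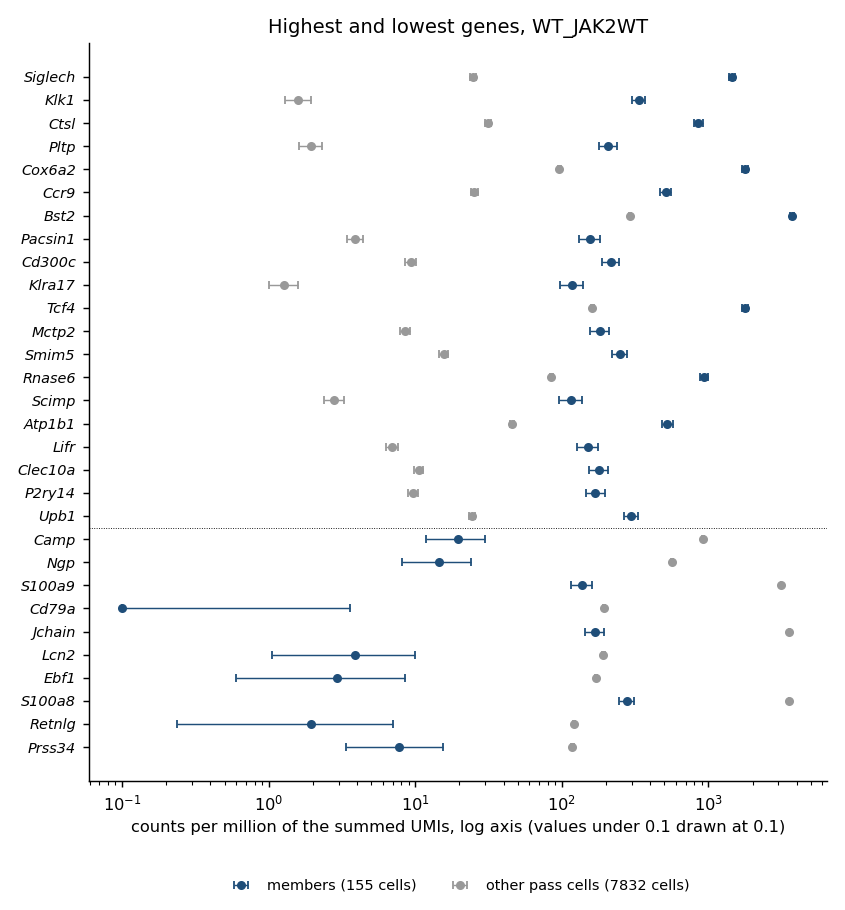
Level of the 20 highest and 10 lowest genes by ratio in WT_JAK2WT, in CPM on a log axis, for the 155 members (blue) and the 7832 other cells (grey). Bars are 95% Poisson intervals. Siglech, Ccr9 and Cd79a were used to choose the members, and the remaining 18 high genes sat between 115 and 3709 CPM in members.

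Nucleic acid sensing genes stood above the other cells. Of 12 measured genes 8 were at least 2-fold higher, with none lower and a median of 1.48. Ctsl, the cathepsin that cleaves endosomal TLRs (chromosome 13, 64359337 to 64370890), reached 854 CPM (799 to 913) against 31.4 CPM and was seen in 143 members. Ctsb reached 1028 CPM against 150 CPM, and Pld4, an endosomal exonuclease that degrades single-stranded nucleic acid, 498 CPM against 53.6 CPM. Unc93b1, the chaperone that carries TLR7 and TLR9 to endosomes, reached 513 CPM against 155 CPM. The receptor genes themselves were thinly covered: Tlr7 had 65 UMIs in 45 members (63.2 CPM, 48.8 to 80.6, against 2.63 CPM), and Tlr9 was seen in 2 members. Irf7 was at 115 CPM against 8.00 CPM, in 66 members.

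No member held a UMI of any of the 18 type I and type III interferon genes on the list, Ifnb1, Ifne, Ifnl2, Ifnl3 and 14 Ifna genes including Ifnab. At this depth 3 counts of 1 gene would be 2.92 CPM, so lower levels were not detectable. The Ifna genes are near-identical copies, and reads that fit several of them may be missing from the counts. Interferon-stimulated genes were detectable in the same cells, and 7 of 9 measured were at least 2-fold higher (median 1.39). Bst2 is 1 of these 9. Ly6e stood at 2229 CPM against 1044 CPM, Ifi27l2a at 822 CPM against 174 CPM and Isg15 at 64.2 CPM against 18.2 CPM. Ifit3, Ifit3b, Oas2 and Rsad2 were at 0 UMIs. They stood at 0.24 to 1.93 CPM in the other cells, under the 2.92 CPM of 3 counts. Their absence from members therefore could not be judged. The remaining genes of the list, too low to count as measured, went both ways. Above the other cells were Ifi44 (24.3 against 4.05 CPM), Usp18 (18.5 against 4.56 CPM), Oasl2, Mx1, Oasl1 and Oas1a. Below them were Rtp4 (0.97 against 7.63 CPM), Isg20 (4.87 against 14.7 CPM), Zbp1, Xaf1, Ifit1, Ifit2, Ifi204, Ifi213 and Oas3.

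Antigen presentation genes of class II were higher than in the other cells of the library, 7 of 8 measured by at least 2-fold (median 1.37), and lower than in conventional dendritic cells. Cd74, the invariant chain, reached 3094 CPM (2988 to 3204) in members, 1101 CPM in other cells and 11399 CPM in conventional dendritic cells. H2-Aa, a class II alpha chain, stood at 938, 305 and 4390 CPM in the same order, and H2-Aa was among the genes used to choose the conventional dendritic cells. The part of that choice in their Cd74 and other class II levels was not tested. H2-Ab1 stood at 585 and 241 CPM in members and other cells. Ctss, the protease that trims the invariant chain, was at 560.5 CPM against 144 CPM. The costimulatory gene Cd80 had 0 UMIs. Of 13 class I genes 4 were at least 2-fold higher (median 0.74), and B2m was present in all 155 members at 2109 CPM against 1507 CPM.

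The secretory apparatus did not differ at this cut-off: 0 of 23 measured genes of the secretory pathway and its chaperones passed 2-fold in either direction (median -0.12). Sec61b, a translocon subunit, was at 1254 CPM against 1145 CPM and Hspa5, the chaperone BiP, at 667 CPM against 781 CPM. Receptors for trafficking and for cytokines included several high genes. Of 10 measured homing receptors 5, including Ccr9, were at least 2-fold higher. Both chains of the type I interferon receptor were higher, Ifnar1 at 138 CPM against 33.2 CPM and Ifnar2 at 192 CPM against 72.8 CPM. Flt3, the receptor that sustains the lineage, was at 112 CPM against 40.8 CPM, and 6 of 12 measured cytokine receptor and JAK-STAT genes were higher and 1 lower. Jak2 itself was at 62.3 CPM (48.0 to 79.5) in members and 40.2 CPM (38.7 to 41.8) in other cells.

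None of 11 hedgehog pathway genes reached 50 CPM in members or in other cells. Gli1, the gene deleted in the knockout donors, had 0 UMIs in the members of all 3 libraries that hold any. It had 0 UMIs in the remaining cells of WT_JAK2WT, 2 UMIs in those of WT_JAK2V617F and 5 in those of each Gli1 knockout library, so the knockout could not be read from the transcript in these cells. Ptch1, the hedgehog receptor, was the best covered at 39.9 CPM (28.6 to 54.1) against 13.8 CPM, in 36 members.

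Early lymphoid and progenitor genes were mixed. Of 9 measured early lymphoid genes 2 were at least 2-fold higher, Ly6d and Il7r, and 4 lower. Il7r reached 262 CPM against 68.7 CPM and was seen in 99 members. Dntt, the terminal transferase of early lymphoid cells, was at 112 CPM against 139 CPM, in 51 members, and Rag1 had 0 UMIs. T cells of the library held a Dntt UMI in 49.1% of cells and at least 2 in 368 of 943. Their Dntt, at 487 CPM, was above that of the members, so they do not serve as a measure of stray Dntt. The deeper cells with at least 5 Mpo UMIs (median 8427 UMIs) held Dntt in 16.9%, at 75.3 CPM. The part of stray transcripts in the members' Dntt was not tested. Of 8 measured progenitor genes 2 were higher and 4 lower, with Mpo, myeloperoxidase of myeloid granules, at 626 CPM against 2472 CPM. The pre-B genes Vpreb1, Vpreb3 and Igll1 were lower in members, at 6.81 to 12.7 CPM against 56.1 to 150 CPM. S phase genes were lower without reaching 2-fold (0 of 17, median -0.62), and the G2 and M genes were level (0 of 17, median 0.01).

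Marker lists of other types gave the following levels in the members. B lineage markers were lower in 5 of 6 measured genes, 1 of them Cd79a, which the rule held at 0, and T cell markers in 5 of 5. Their summed levels were 104 and 121 CPM, with Fcmr and Cd247 at 0 UMIs. Erythroid markers summed to 13.6 CPM, macrophage markers to 16.5 CPM with C1qa, C1qb and C1qc at 0, and stromal markers to 2.92 CPM with 9 of 10 genes at 0. Neutrophil markers were lower in 7 of 7 measured genes and still summed to 465 CPM. S100a8, the calprotectin subunit, was present in 69.7% of members and in 68.7% of T cells, and Jchain in 67.1% and 67.4%. The summed levels were not alike, at 277 CPM in members and 895 CPM in T cells for S100a8, and 167 and 840 CPM for Jchain. The progenitor protease gene Elane had a median of 3 UMIs per member but 343 in 1 cell, out of 919 in all. These transcripts were given as measured, and their part in other values was not tested. Conventional dendritic cell markers were not low as a list: 5 of 7 measured were at least 2-fold higher in members than in other cells, among them Klrd1 at 278 CPM against 31.4 CPM and Clec10a at 178 CPM against 10.5 CPM, while Id2 was at 39.9 CPM against 89.8 CPM and Ccl17 at 0. Monocyte markers were not low either: 2 of 7 measured were higher and 2 lower. They summed to 2244 CPM in members and 2017 CPM in other cells. Of 6 measured markers of transitional dendritic cells 1 was lower and none higher. Also lower were 1 of 1 NK cell, 2 of 4 plasma cell and 2 of 3 mast cell and basophil markers, with none higher.

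**Figure D3:**
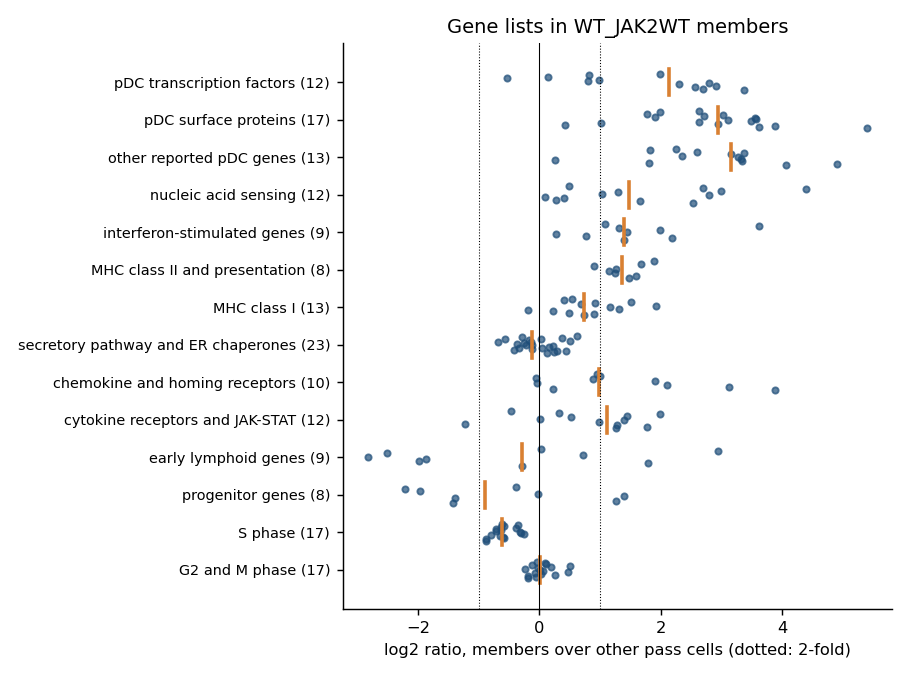
Log2 ratio of members over other cells in WT_JAK2WT (horizontal axis, 10 CPM added) for each measured gene of 14 lists (rows, number measured in brackets). Points are genes, orange lines are list medians and dotted lines mark 2-fold. The 3 lineage lists have medians of 2.14 to 3.16, the secretory list -0.12 and the S phase list -0.62.

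Against the 234 cells of the same library that had Siglech but no Ccr9, the members had more antigen presentation and less replication transcript. Cd74 was at 3094 CPM in members and 396 CPM (log2 ratio 2.94) in the Ccr9-negative cells, and H2-Eb1 at 452 and 51.4 CPM (2.91). Klk1 was at 335 and 11.5 CPM and Pltp at 207 and 14.7 CPM. Mzb1, an endoplasmic reticulum cochaperone, was at 185 and 18.8 CPM. Among lower genes, the linker histone gene Hist1h1b was at 399 CPM against 1079 CPM, Pclaf, a PCNA-binding protein, at 589 CPM against 1481 CPM, and Bcl2, the survival gene, at 103 CPM against 313 CPM. Of measured genes 3.7% were at least 2-fold higher in members and 1.68% lower, while 9 of 19 S phase genes were lower and 5 of 8 class II genes higher. Ccr9 separates these sets by choice, and the Ccr9-negative cells were deeper, with a median of 8767.5 UMIs against 5494.

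Against 217 plasmacytoid-like progenitors, chosen by Cox6a2, Dntt and Irf8, the difference in the lineage lists was larger. At least 2-fold higher in members were 15 of 17 surface genes and 8 of 12 sensing genes, beside 9.12% of all measured genes, and 2.73% were lower. Ctsl was at 854 CPM against 61.8 CPM. Scimp, an adaptor that links class II to signalling, was at 115 CPM against 2.91 CPM. Lower in members were Il12a, an interleukin subunit gene, at 9.73 CPM against 117 CPM, and Adgrg3, an adhesion receptor, at 21.4 CPM against 135 CPM. All 7 measured neutrophil markers were lower too, with S100a9 at 137 CPM against 1945 CPM in the progenitor set. Bst2, Tcf4 and Siglech gave a graded series, at 701, 456 and 148 CPM in the progenitors, 1781, 964 and 484 CPM in the Ccr9-negative cells, and 3709, 1773 and 1455 CPM in the members. Siglech was part of the choice of the Ccr9-negative cells and the members, and the progenitors were not required to hold it. Its step up from the progenitors therefore follows from the choice of cells. Nor were the progenitors barred from holding Siglech, so a cell could count in both the progenitor set and the Ccr9-negative set. The progenitors were also deeper, with a median of 11630 UMIs against 5494 in the members.

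Against 160 conventional dendritic cells, chosen by H2-Aa, Cst3 and Flt3 without Siglech, 8.39% of measured genes were at least 2-fold higher in members and 4.58% lower. Batf3, the factor of cross-presenting dendritic cells, was at 2.92 CPM against 212 CPM, and Xcr1, their chemokine receptor, at 1.95 CPM against 165 CPM. Id2, which restrains TCF4, was at 39.9 CPM against 779 CPM. The acid hydrolase genes Plbd1 and Naaa were at 12.7 and 13.6 CPM against 568 and 494 CPM. Class II genes were lower in 8 of 11. H2-Aa is on that list and was used to choose the conventional dendritic cells, so they were high in class II partly by choice. Sdc4, a syndecan, was at 402 CPM against 14.6 CPM, and Atp1b1, a sodium pump subunit, at 525 CPM against 10.8 CPM.

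The 869 B lineage cells were chosen by at least 3 Cd79a UMIs and at least 1 of Cd79b, without Siglech. They and the members were thus chosen in opposite directions on Cd79a and Siglech. The part of that choice in other B lineage genes was not tested. Against these cells, 17.9% of measured genes were at least 2-fold higher in members and 3.79% lower. Runx2 was at 807 CPM against 14.0 CPM, Mpeg1, the pore-forming perforin-2, at 1086 CPM against 20.1 CPM and Ccnd1, cyclin D1, at 495 CPM against 6.07 CPM. In the other direction Ebf1, the B lineage factor, was at 2.92 CPM against 956 CPM, Ms4a1 (CD20) at 0.97 CPM against 278 CPM and Pou2af1 at 0.97 CPM against 206 CPM. Jchain, the joining chain of secreted antibody, was at 167 CPM against 21485 CPM. Blnk and Spib, which both lineages use, were at 123 and 168 CPM in members against 126 and 79.5 CPM in B lineage cells.

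**Figure D4:**
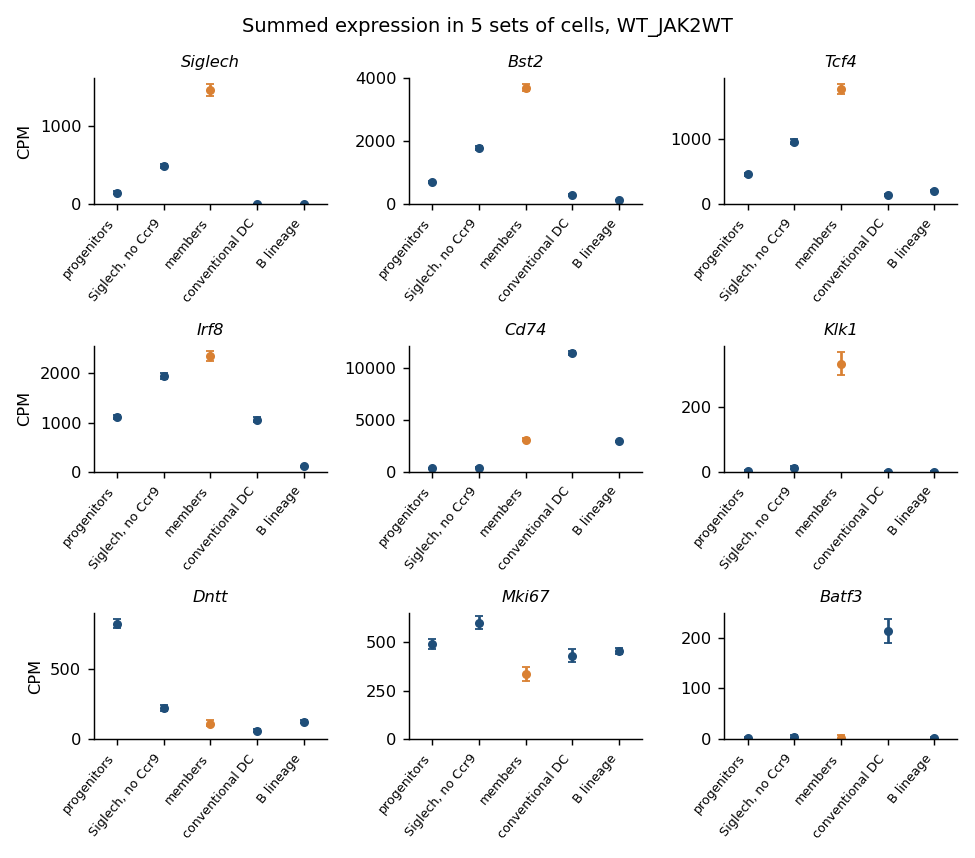
Summed level (CPM, vertical axes starting at 0) of 9 genes in 5 sets of WT_JAK2WT cells: progenitors (217 cells), cells with Siglech but no Ccr9 (234), members (155, orange), conventional dendritic cells (160) and B lineage cells (869). Bars are 95% Poisson intervals. Bst2 and Tcf4 climb to 3709 and 1773 CPM in the members, Dntt declines from 816 to 112 CPM from progenitors to members, and Batf3 is high in conventional dendritic cells at 212 CPM. Siglech, Dntt and Irf8 took part in choosing 1 or more of the sets. Progenitors and cells with Siglech but no Ccr9 may share cells.

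Variation among the WT_JAK2WT members was described after thinning 152 of them to 1500 UMIs. Over 422 genes with a mean of at least 0.5 UMIs the median of variance over mean was 1.14, and 36 genes exceeded 2. The first were Gm42418, a predicted gene that overlaps ribosomal RNA sequence (20.8), and Malat1, a nuclear noncoding RNA (17.1). Among protein-coding genes Cd74 led at 6.31, with 0 to 29 UMIs and a median of 4. Elane stood next at 4.79, then Ly6d at 4.58, and further down Ly6a, the antigen Sca-1, at 3.90, with any UMI in 44 of 152 cells. The granule genes Elane, Mpo (3.26) and Ctsg (2.96) had highest cells of 23, 12 and 11 UMIs. Hmgb2, Top2a and Stmn1, which go with division, were there too, with a median of 0 and a highest of 9 UMIs for Top2a. As sequenced, 39 of 155 members (25.2%, 18.5 to 32.8) held at least 5 UMIs of G2 and M genes, against 47.5% of the other cells.

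The 26 thinned members with a Dntt UMI were set beside the 126 without. Bst2 was detected in 100% and 99.2% of them, Tcf4 in 92.3% and 88.1%, and Cd74 in 84.6% and 72.2%. Cox6a2 was detected in 92.3% and 77.0%, Ly6d in 96.2% and 84.1%, Klk1 in 46.2% and 31.0% and Mki67, a division marker, in 11.5% and 21.4%. Ly6c2 was detected in 8 of 26 (30.8%) with Dntt and in 84 of 126 (66.7%) without. This comparison has no replicate, and depth was equal by construction. Surface subset markers were sparse, with Cd4 in 34 and Cd8a in 17 of the 155 members as sequenced.

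The sex of the members differed between libraries. In WT_JAK2WT, Xist, the noncoding RNA of the inactive X chromosome, was found in 155 of 155 members and 0 UMIs of the Y-linked genes Ddx3y, Eif2s3y, Kdm5d and Uty were found. In GLI1KO_JAK2WT 0 of 17 members held Xist and 15 held a Y-linked UMI, and in GLI1KO_JAK2V617F the counts were 0 and 9 of 11. Members of the WT library were thus female cells and those of the Gli1 knockout libraries male cells. The recipients were female, so the knockout members carry the sex of neither the recipients nor the WT members, and in WT_JAK2WT donor and recipient cells cannot be told apart by sex. Genotype and sex of the cells cannot be told apart in any comparison between them. GFP, the marker of the retrovirus, was detected in 1 of 155, 0 of 17 and 0 of 11 members, and in 0.562%, 0.176% and 1.02% of the other cells of those libraries. The GFP transcript was rare in the other cells too, so its absence from a member does not show an untransduced cell. Pairs of libraries shared 5 to 18 barcodes among cells passing the filters, and none was a member.

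The few members of the Gli1 knockout libraries were compared with those of WT_JAK2WT as values, since 17 and 11 cells of 1 library each allow no more. Their total depth was 174625 and 162454 UMIs. The markers not used by the rule were present in both. Bst2 was at 3709 CPM in WT_JAK2WT, 3470.3 CPM (3199 to 3758) in GLI1KO_JAK2WT and 2665 CPM (2420.2 to 2929) in GLI1KO_JAK2V617F. Tcf4 was at 1773, 1237 (1077 to 1413) and 782 (652 to 930.1) CPM. Spib was at 168, 132 (83.5 to 198) and 49.2 (21.3 to 97.0) CPM. The intervals of GLI1KO_JAK2V617F lay below those of WT_JAK2WT for all 3 genes, and those of GLI1KO_JAK2WT did so for Tcf4. Siglech, a rule gene, was at 1455, 1180 and 566 CPM. The thresholds are in UMIs, so cells of the deeper libraries qualified at lower CPM, and the part of this in the marker levels was not tested.

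In GLI1KO_JAK2WT some lineage lists stayed within 2-fold of WT_JAK2WT and the surface list did not. Of 320 genes at 500 CPM or more in either sum, 2.5% were at least 2-fold higher with intervals apart and 1.25% lower, and of 3740 genes at 50 CPM or more, 4.87% were higher and 2.65% lower without regard to intervals. All 11 lineage factors measured stayed within 2-fold (median 0.11), as did all 14 sensing genes and all 9 interferon-stimulated genes. Of 18 measured surface genes 3 were higher and 1, Ly6d, was lower, each with intervals apart. Cadm1, a cell adhesion molecule, was at 166 CPM (111 to 239) against 4.87 CPM (1.58 to 11.4) and was seen in 14 of 17 members, with at most 5 UMIs in a cell. Klra17 was at 395 CPM (307 to 500.1) against 117 CPM in 16 members, and Cd209d at 178 CPM against 79.8 CPM in 8. Klk1 was at 132 CPM (83.5 to 198) against 335 CPM, and 5 of 17 members held any. Irf8 was at 2543 CPM against 2350 CPM, Ctsl at 1059 against 854 CPM and Irf7 at 189 (130.1 to 265) against 115 CPM. Ly6d was at 1575 CPM against 3506 CPM (log2 ratio -1.15), and in the other cells of these libraries it was at 128 against 446 CPM. Vim, an intermediate filament gene, was at 1575 against 466 CPM and Lgals3, galectin-3, at 613 against 134 CPM, and 43 of the 107 Lgals3 UMIs came from 1 cell.

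Division genes in GLI1KO_JAK2WT also rested on few cells. Of 19 measured G2 and M genes 8 were at least 2-fold higher than in WT_JAK2WT members, but Ube2c, a ubiquitin-conjugating enzyme of mitosis, had 99 of its 160 UMIs in 1 of 17 cells. When the highest cell of each gene was left out of both sums, an alternative chosen after the values were seen, 2 of 15 remained at 2-fold. At least 5 UMIs of G2 and M genes were held by 6 of 17 members (35.3%, 14.2 to 61.7), whose interval overlaps the 25.2% of WT_JAK2WT.

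In GLI1KO_JAK2V617F more genes differed. Of 326 genes at 500 CPM or more 6.75% were at least 2-fold higher with intervals apart and 7.06% lower, and of 3685 genes at 50 CPM or more 7.9% were higher and 9.09% lower. Runx2 was at 277 CPM (202 to 371) against 807 CPM, Ly6c2 at 277 against 1062 CPM, and Mpeg1 at 394 (303 to 503) against 1086 CPM. Irf8 was at 1231 (1066 to 1414) against 2350 CPM. Of 9 interferon-stimulated genes 5 were at least 2-fold lower (median -1.14), and of 12 lineage factors 4 (median -0.76). Of 19 surface genes 5 were lower and 2 higher, and Cadm1, seen in 10 of 11 members, was at 111 CPM (65.7 to 175) against 4.87 CPM. Ctsl was at 831 against 854 CPM. Irf7 was at 129 against 115 CPM, with 12 of its 21 UMIs in 1 cell, and Cd74 was at 4580 (4257 to 4921) against 3094 CPM. Malat1, at 8088 against 23185 CPM, was lower in the other cells of this library too, at 7416.5 against 12861 CPM, as were Tcf4 (71.1 against 162 CPM), Ly6c2 (275 against 792 CPM), Runx2 (31.2 against 99.0 CPM), Mpeg1 (18.8 against 129 CPM) and Irf8 (96.4 against 389 CPM). The other cells differ in make-up: they include 9 Siglech cells without Ccr9 and 36 plasmacytoid-like progenitors here, against 234 and 217 in WT_JAK2WT. The part of that make-up in these values was not tested.

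Several high values of GLI1KO_JAK2V617F came from a single member. Prtn3 had 405 of its 446 UMIs, Mpo 243 of 268 and Ms4a3 76 of 83 in 1 cell of 11, and without the highest cell of each gene the log2 ratios against WT_JAK2WT were -0.93, -1.17 and -0.47. The glycolytic genes Ldha (659 against 199 CPM) and Gapdh (1841 against 640.3 CPM) had 59 of 107 and 163 of 299 UMIs in 1 cell, and without the highest cell of each gene their log2 ratios went from 1.68 to 1.06 and from 1.51 to 0.91. Both were also higher in the other cells of that library, where Ldha was at 792 against 325 CPM and Gapdh at 1633 against 1088 CPM. Summed G2 and M transcripts were at 671 CPM against 2670.1 CPM in WT_JAK2WT, and 11 of 17 measured genes were at least 2-fold lower (median -1.70). The share of members with at least 5 such UMIs did not follow, at 3 of 11 (27.3%, 6.02 to 61.0) beside 25.2% in WT_JAK2WT, where the highest member alone held 266. S phase transcripts summed to 1877 and 1688 CPM, with 2 of 16 measured genes higher and 1 lower.

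**Figure D5:**
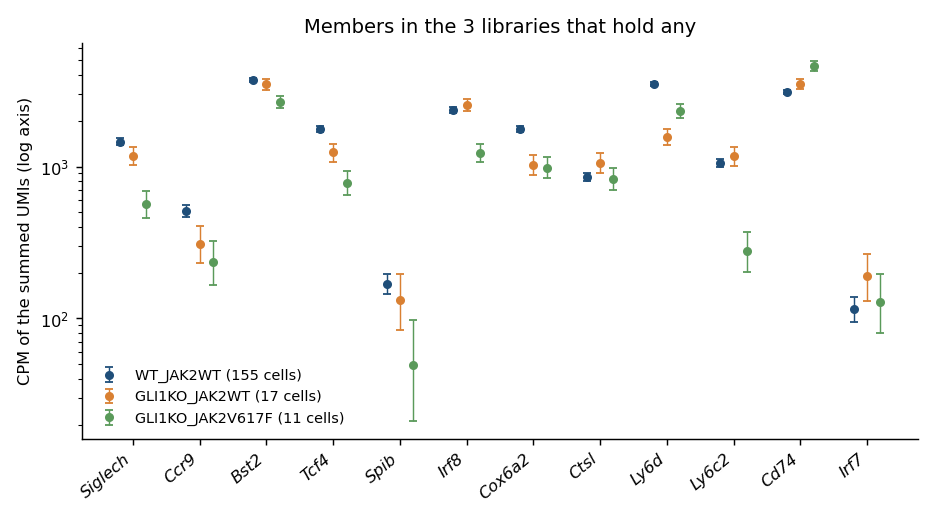
Summed level (CPM, log axis) of 12 genes in members of WT_JAK2WT (155 cells), GLI1KO_JAK2WT (17) and GLI1KO_JAK2V617F (11), with 95% Poisson intervals. Bst2 stays between 2665 and 3709 CPM, Ctsl between 831 and 1059 CPM, and Ly6c2 is at 277 CPM in GLI1KO_JAK2V617F against 1062 CPM in WT_JAK2WT.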

How the data were processed

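Droplet 3' single-cell RNA libraries (10x) of 4 groups, 1 library each, were used as the UMI counts per gene and cell that the authors deposited. Per the submitters' processing notes Cell Ranger 4.0.0 and the build mm10 were used, and Seurat 4.0.4 is named without its role. The counts were not normalized. Cells were filtered, the members chosen by Siglech, Ccr9 and Cd79a counts, and raw counts summed per set and scaled to CPM. The members and the 29 gene lists were chosen with earlier results of these data known. Named genes follow a rule: the markers, the 20 highest and 10 lowest ratios (100 CPM and 30 UMIs at least; mitochondrial, ribosomal, predicted, receptor-segment, Xist and Y-linked genes left out), the 4 most abundant of each list and those at 0, 8 per direction for each related set and library, and the 15 most variable. Other genes of the fixed lists were named after their values were seen. The hashtag libraries were not analysed here, so each group is 1 library and no test was run. Totals were 59165347 to 114847114 UMIs per library. Doublets were kept: Scrublet in scanpy 1.11.5 marked 12 of 155 WT_JAK2WT members and 0 elsewhere, and removal is an alternative. Calculations used Python 3.11.15 and were tested on simulated data. Values of some genes the naming rule selects are not reported here.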

Additional observations from a re-analysis of the deposited data

Results flagged for a closer look

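In WT_JAK2WT 10 barcodes met the Siglech, Ccr9 and Cd79a counts but not the cell filters, a signal among cells the comparisons leave out. All 10 had at least 10% mitochondrial UMIs, with a median of 10.9%, and a median of 2522.5 UMIs. Their summed Bst2 was 2686 CPM and Tcf4 1873 CPM, beside 3709 and 1773 CPM in the members. WT_JAK2V617F had 0 such barcodes among 2305 outside the filters, and both Gli1 knockout libraries had 1 each.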

How the results depend on the processing

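The share of members in WT_JAK2WT was 2.66% under a stricter cell filter, 1.64% with mitochondrial UMIs allowed up to 20%, 4.87% without the Ccr9 requirement, 1.28% with at least 2 Ccr9 UMIs and 1.00% with cells thinned to 1500 UMIs. In GLI1KO_JAK2WT it was 1.58% without the Ccr9 requirement and 0.144% thinned, and in GLI1KO_JAK2V617F 0.308% and 0.0488%. Doublet removal, other Siglech limits and no limit on Cd79a left every share inside its interval, and WT_JAK2V617F stayed at 0 except for the 1 cell without the Ccr9 requirement. The 386 genes higher and 121 lower in members of WT_JAK2WT became 188 and 59 with 50 CPM added, and the lower count 201 with genes measured from 20 CPM. The 30 named genes of that comparison kept direction and 2-fold under all 7 alternatives. Siglech, Ccr9 and Cd79a, which the rule fixed, are among the 30. The rest were picked as the most extreme ratios of the same data, so this stability is partly built in. Against WT_JAK2WT members, the 8 higher genes of GLI1KO_JAK2WT became 3 with each cell weighted equally and 1 without the highest cell of each gene (a setting chosen after seeing the data), and the 4 lower became 7 in the latter. The 22 higher and 23 lower genes of GLI1KO_JAK2V617F became 11 and 14 with cells weighted equally, and the higher ones 8 without the highest cell. There Ms4a3 (-0.47), Prtn3 (-0.93) and Mpo (-1.17) changed sign. The cause of these shifts was not tested, other than that the last setting removes 1 cell per gene. No paired analysis was possible because the hashtag libraries were not analysed here, which leaves 1 library per group. For the same reason no replicate was left out. The G2 and M genes higher in GLI1KO_JAK2WT were 8 of 19, 3 with 50 CPM added and 4 of 16 with cells weighted equally. With 17 and 11 cells, a gene under 17.2 and 18.5 CPM would yield fewer than 3 counts.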
